A study of Mus musculus with 2 samples.

Results

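Immediate early genes are switched on within minutes of a stimulus, without new protein synthesis, and 10 of them were followed here among the 31053 genes listed for each library: Fos, Fosb, Jun, Junb, Jund, Egr1, Atf3, Ier2, Dusp1 and Klf2. They were taken as a named list and matched by symbol, and each symbol belonged to 1 identifier. The cells were microglia, the resident macrophages of the brain, sorted from the hypothalamus of young wild-type mice 20 hours after an injection of plasma protein that carried a dye. Animals were pooled, and the sort gave 1 library of plasma-positive cells, which carried the dye, and 1 library of plasma-negative cells, which did not. The mice of both groups had received the injection, and no uninjected group was analysed here.

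Jun and Fos proteins pair through leucine zippers to form AP-1, a transcription factor that reads short DNA sites, and Atf3 can join the same kind of pair. Signals reach these genes mainly through MAP kinases, which act on serum response factor and its partners and on CREB at their promoters. Egr1 and Klf2 encode zinc finger transcription factors, Ier2 a short-lived nuclear protein, and Dusp1 a phosphatase that switches MAP kinases off again. The label of the list therefore covers 8 genes for DNA-binding factors and 2, Ier2 and Dusp1, that are immediate early genes of another kind. In microglia these genes are known to respond to injury, to inflammatory signals and to the handling of tissue during cell isolation.

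Kept cells numbered 9860 in the plasma-negative and 10362 in the plasma-positive library, with 34534518 and 41984977 UMIs (unique molecular identifiers, each standing for 1 captured RNA molecule). The median cell held 3270.5 UMIs in the plasma-negative and 3753 in the plasma-positive library, and its mitochondrial share was 1.08% and 1.27%. At least 4 of 11 microglia markers were found in 99.7% of cells of either library, and every one of those markers was detected in at least 64.4% of cells. Of the 9 other cell types checked, the most frequent had 4 or more of its markers in 3 plasma-negative cells and in 2 plasma-positive cells. With 1 library per group there is no replicate check and no test was run. All intervals are 95% intervals for counting error, and differences between mice, sorts and library preparations are not covered by them. Nor do the intervals of levels and ratios cover the clustering of UMIs in single cells.

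The letters before the start sites are shown first, because 6 of the 8 members with a promoter in the RefSeq table (GRCm38.p6) share a short match there. The table holds no entry for Ier2 or Egr1. In the 250 bases before the start, the short form of the cyclic AMP response element, TGACG on either strand, was found for Fos, Fosb, Junb, Atf3, Dusp1 and Klf2, and not for Jun or Jund. The same match occurs in 17.8% of the 32851 promoters in the table. Only Dusp1 held the full element TGACGTCA, which 1.55% of promoters hold, and 2 of the short matches in Dusp1 lie inside it. Fosb and Klf2 held GCGGGGGCG, an EGR site found in 2.57% of promoters, and Fos held TATAAA, found in 12.4%. No member held the AP-1 site TGACTCA (4.46% of promoters) or a CArG box, the site of serum response factor (1.47%), inside this window. For Jund the start in the table lies upstream of the gene start in GENCODE M21, so its window is not the promoter of that shorter model. A match is a run of letters and says nothing of binding.

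The stretches below run 5′ to 3′ on the strand of the gene, with the matches in capitals. They lie at chr12:85473746-85473877 (plus strand) for Fos, chr7:19310072-19310120 (minus) for Fosb, chr8:84978835-84978869 (minus) for Junb, chr1:191183334-191183355 (minus) for Atf3, chr17:26508593-26508678 (minus) for Dusp1 and chr8:72318812-72318886 (plus) for Klf2. GENCODE M21 has no gene over the windows of Fos, Fosb, Junb and Klf2. The Dusp1 window lies inside the Dusp1 gene model but over no exon, and the Atf3 window overlaps an exon of Atf3.
Fos: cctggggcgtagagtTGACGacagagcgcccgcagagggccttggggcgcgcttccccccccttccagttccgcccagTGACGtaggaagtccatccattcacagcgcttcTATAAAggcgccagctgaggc
Fosb: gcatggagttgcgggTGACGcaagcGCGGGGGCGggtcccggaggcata
Junb: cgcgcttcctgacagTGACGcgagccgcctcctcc
Atf3: ctattaatagcattaCGTCAgc
Dusp1: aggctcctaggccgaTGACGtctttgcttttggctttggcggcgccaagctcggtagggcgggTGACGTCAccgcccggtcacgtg
Klf2: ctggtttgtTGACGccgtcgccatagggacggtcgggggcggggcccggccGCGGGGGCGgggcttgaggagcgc

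The 10 genes fell into 3 tiers of level. Levels are in CPM, the gene's UMIs per 1000000 UMIs of the library. Because UMIs are captured near the 3′ end of the RNA, they are not divided by gene length. The 3 Jun genes made up 91.5% of all UMIs of the list in the plasma-negative and 89.9% in the plasma-positive library. Atf3, Klf2 and Ier2 formed a middle tier, and Egr1, Dusp1, Fosb and Fos were nearly silent. The Jun genes had 22818 UMIs against 26 for Fos and Fosb together in the plasma-negative library, and 25834 against 46 in the plasma-positive library.

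Among the Jun genes, Jund (ENSMUSG00000071076, chromosome 8, 70698949 to 70700616, plus strand) was the most abundant. Without plasma its level was 237 CPM (232 to 242), and with plasma it was 224 CPM (220 to 229). Jund encodes the Jun protein that is known to be made in resting cells. Junb (ENSMUSG00000052837, chromosome 8, 84974484 to 84978718, minus strand) was at 216 CPM (211 to 221) and 208 CPM (204 to 213). Jun (ENSMUSG00000052684, chromosome 4, 95049034 to 95052222, minus strand), the founding member, was at 208 CPM (203 to 213) and 183 CPM (179 to 187). The order was the same in both libraries, and each step was small: Jund exceeded Junb 1.09-fold (1.06 to 1.13) and Junb exceeded Jun 1.04-fold (1.01 to 1.07) in the plasma-negative library. In the plasma-positive library the same steps were 1.07-fold (1.04 to 1.11) and 1.14-fold (1.10 to 1.18). All 3 are protein-coding genes whose first GENCODE transcript has a single exon. They overlap a gene on the other strand in GENCODE M21, namely Junos for Jun, Prdx2 for Junb and Gm11175 for Jund. The use of strand in counting was not stated, so reads could be misassigned. Junos was at 2.20 and 1.86 CPM, Gm11175 had 8 and 4 UMIs, and Prdx2 was at 103 and 115 CPM.

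In the middle tier, Atf3 (ENSMUSG00000026628, chromosome 1, 191170296 to 191218039, minus strand), a stress-induced factor that mostly represses, was at 23.3 CPM (21.8 to 25.01) and 23.7 CPM (22.2 to 25.2). It lay 8.90-fold (8.28 to 9.59) below Jun in the plasma-negative and 7.72-fold (7.23 to 8.26) below it in the plasma-positive library. Klf2 (ENSMUSG00000055148, chromosome 8, 72319033 to 72321656, plus strand), known for restraining inflammatory activation of myeloid and endothelial cells, was at 17.1 CPM (15.8 to 18.6) and 23.0 CPM (21.6 to 24.5). Atf3 exceeded Klf2 1.36-fold (1.22 to 1.52) in the plasma-negative library, while in the plasma-positive library the 2 did not differ beyond counting error (1.03-fold, 0.942 to 1.13). Ier2 (ENSMUSG00000053560, chromosome 8, 84661331 to 84662852, minus strand) was at 14.9 CPM (13.7 to 16.3) and 13.8 CPM (12.7 to 14.9).

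The lowest tier held the genes best known as activity markers. Egr1 (ENSMUSG00000038418, chromosome 18, 34859823 to 34864984, plus strand) had 95 UMIs in the plasma-negative and 185 in the plasma-positive library, or 2.75 CPM (2.23 to 3.36) and 4.41 CPM (3.79 to 5.09). Dusp1 (ENSMUSG00000024190, chromosome 17, 26505590 to 26562128, minus strand) had 74 and 124 UMIs, or 2.14 CPM (1.68 to 2.69) and 2.95 CPM (2.46 to 3.52). It overlaps Ergic1 on the other strand, which was at 26.9 and 28.8 CPM. Fosb (ENSMUSG00000003545, chromosome 7, 19302696 to 19310051, minus strand) had 17 UMIs in each library. Fos (ENSMUSG00000021250, chromosome 12, 85473890 to 85477273, plus strand), the partner of Jun in the classical AP-1 pair, had 9 and 29 UMIs, or 0.261 CPM (0.119 to 0.495) and 0.691 CPM (0.463 to 0.992). Egr1 and Dusp1 did not differ in level beyond counting error in the plasma-negative library (1.28-fold, 0.937 to 1.76), nor did Fosb and Fos in either library. Fos, whose promoter carries the TGACG matches and the TATA box printed above, ranked 12901st by level in the plasma-negative and 11928th in the plasma-positive library.

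**Figure D1:**
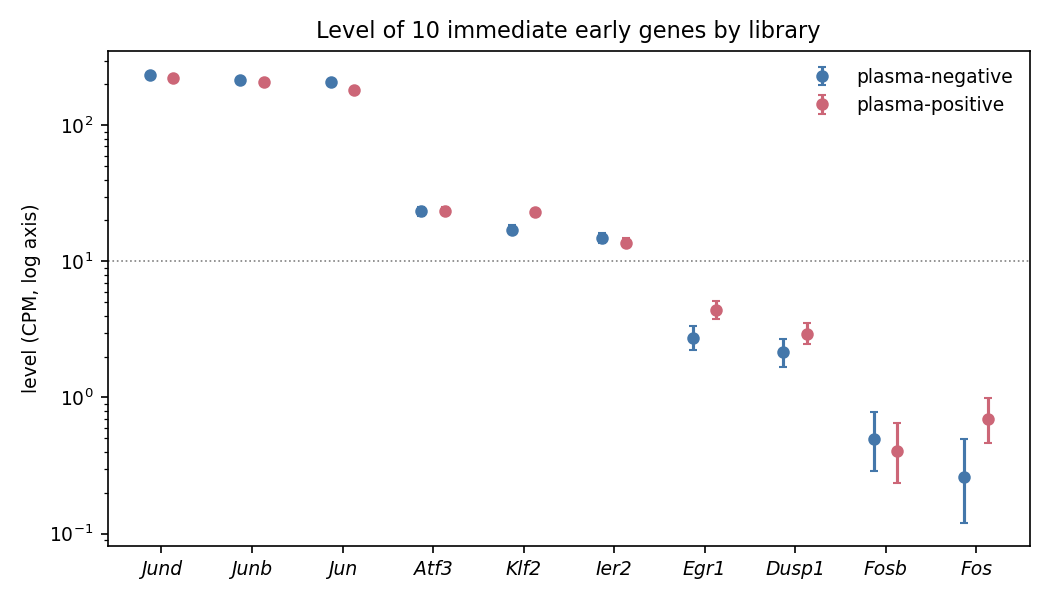
Level of each gene in CPM on a log axis, with exact Poisson intervals, for the plasma-negative (blue) and plasma-positive (red) library; the dotted line marks 10 CPM, the minimum for comparing libraries. Jund, Junb and Jun lie near 200 CPM, Atf3, Klf2 and Ier2 between 13.8 and 23.7 CPM, and the other 4 genes below 5 CPM.

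Detection followed the same tiers. Jund was seen in 48.1% of cells without plasma and 51.6% of those with it, Junb in 44.4% and 47.0%, and Jun in 40.1% and 40.6%. Atf3, Klf2 and Ier2 were each seen in 4.80% to 6.60% of cells. Egr1 was seen in 57 plasma-negative cells (0.578%, 0.438% to 0.748%) and 77 plasma-positive cells (0.743%, 0.587% to 0.928%). Fos was seen in 8 cells (0.0811%, 0.0350% to 0.160%) and 25 cells (0.241%, 0.156% to 0.356%). Nearly all cells were microglia, so the share that free RNA alone would give could not be read from another cell type, and the few Fos and Fosb cells stand without that background.

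Because plasma-positive cells were deeper, each cell was also thinned to 1000 UMIs, which left out 796 plasma-negative and 603 plasma-positive cells that were shallower. After thinning, Jund was seen in 21.03% (20.2% to 21.9%) of cells without plasma and 19.1% (18.3% to 19.9%) of those with it, Junb in 18.9% and 17.9%, and Jun in 16.9% (16.2% to 17.7%) and 15.1% (14.4% to 15.9%). The shares of all 3 Jun genes were thus higher in the plasma-positive library before thinning and lower after it. For Klf2 the share stayed higher in the plasma-positive library, at 2.02% (1.75% to 2.32%) against 1.67% (1.41% to 1.95%), with intervals that overlap.

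**Figure D2:**
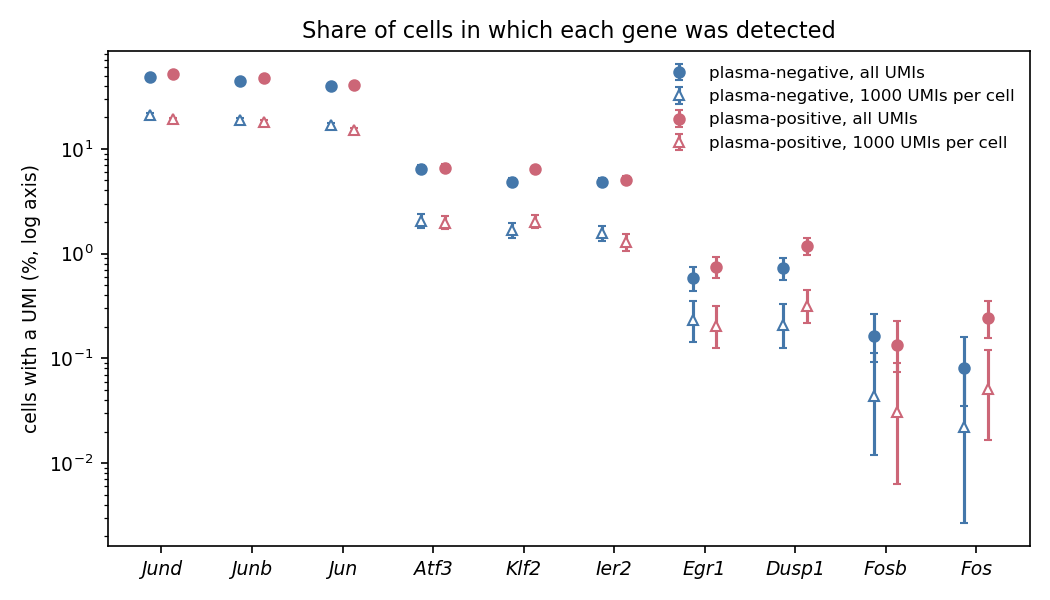
Percent of cells with at least 1 UMI of each gene on a log axis, with exact binomial intervals; filled circles use all UMIs and open triangles use cells thinned to 1000 UMIs. Jund falls from 48.1% to 21.03% of plasma-negative cells with thinning, and the 3 Jun genes change sides between the libraries.

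Between the libraries, the list as a whole differed little. Summed over the 10 genes, the plasma-negative library stood at 722 CPM (713 to 731) and the plasma-positive one at 684 CPM (676 to 692), a log2 ratio of -0.08 (-0.10 to -0.05), plasma-positive over plasma-negative. The median log2 ratio of the 8355 genes with at least 10 CPM in either library was -0.04, with quartiles of -0.11 and 0.04. Of the 10 members, 6 reached that minimum. Past 1.2-fold, 1 of these 6 was higher and 0 were lower in the plasma-positive library, against 1.32% of all compared genes higher and 2.31% lower. With TMM scaling, which shifts every ratio alike, these background shares became 1.99% and 1.25%, while the counts for the members stayed at 1 and 0. The median log2 ratio of the 6 members was -0.07.

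The member past 1.2-fold was Klf2, with 592 UMIs in the plasma-negative and 965 in the plasma-positive library. Its log2 ratio was 0.42 (0.27 to 0.57), a 1.34-fold higher level with plasma. It was higher in all 5 bins of cells by depth and in all 5 bins by mitochondrial share, with log2 ratios from 0.05 to 0.67 and from 0.20 to 0.67. The interval included 0 in the shallowest bin and in the 2 bins of lowest mitochondrial share. Klf2 is also high in endothelial and T cells, so their markers were counted beside it. The summed endothelial markers were at 28.0 CPM in the plasma-negative and 25.4 CPM in the plasma-positive library, with 2 or more of 9 in 4 of 477 Klf2-positive plasma-negative cells and in 1 of 658 Klf2-positive plasma-positive cells. These are 0.839% and 0.152%, against 0.171% and 0.258% of the cells without Klf2. No Klf2-positive cell in either library held 2 or more T or NK cell markers, and 2 or more markers of border-associated macrophages were held by 0 and 2 of them, the latter 0.304% against 0.0927% of plasma-positive cells without Klf2. The part of other cell types in the Klf2 level was not tested. The higher level of Klf2 was spread over cells, since the 10 richest cells held 6.25% and 8.19% of its UMIs and the log2 ratio without them was 0.39.

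Jun had the lowest ratio of the 6, with a log2 ratio of -0.18 (-0.23 to -0.14) that did not reach 1.2-fold but lay below the first quartile of all compared genes. Its level was lower with plasma in all 5 bins of depth (log2 ratios of -0.42 to -0.08) and in all 5 bins of mitochondrial share (-0.22 to -0.09), with intervals that included 0 in 2 bins of depth and 1 of mitochondrial share. Jun was at 225 and 207 CPM in the bin with the lowest mitochondrial share, and at 167 and 143 CPM in the bin with the highest. Junb and Jund were closer to even, with log2 ratios of -0.05 (-0.10 to -0.01) and -0.08 (-0.12 to -0.04), which are near the median of all genes. Ier2 was at -0.12 (-0.29 to 0.06) and Atf3 at 0.02 (-0.11 to 0.16), so neither differed between the libraries beyond counting error. With each cell thinned to 1000 UMIs, Jund moved beyond its counting interval to -0.18, the same as Jun at -0.18. Ier2 then reached -0.28, past 1.2-fold lower, as were 6.58% of all compared genes with thinning. This rested on 144 and 128 UMIs and stayed within the counting interval of its main value.

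The 4 genes below the minimum were not compared by the 1.2-fold rule, and their ratios rest on few cells. Egr1 had a log2 ratio of 0.68 (0.32 to 1.05), but its 10 richest cells held 44.2% of its UMIs without plasma and 57.3% with plasma. Without those cells the log2 ratio was 0.29, and after thinning the shares of Egr1 cells were 0.232% and 0.205%. The richest plasma-positive cell alone held 25 Egr1 UMIs. By mitochondrial share, the log2 ratio of Egr1 ran from -0.74 (-2.24 to 0.58) in the lowest bin to 2.40 (1.28 to 3.77) in the highest. The highest bin held 7 plasma-negative and 70 plasma-positive Egr1 UMIs. By depth, it ran from -0.27 in the second deepest bin to 1.04 (0.47 to 1.66) in the deepest. In all other bins the interval included 0. Dusp1 had a log2 ratio of 0.46 (0.04 to 0.90) and no cell with more than 2 UMIs. Fos had a log2 ratio of 1.41 (0.29 to 2.67) and Fosb one of -0.28 (-1.34 to 0.78).

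How many members a cell showed depended on its depth. With all UMIs, none of the 10 was seen in 20.8% and 18.5% of cells without and with plasma, exactly 1 in 31.3% and 30.7%, exactly 2 in 29.2% and 28.8%, and exactly 3 in 15.2% and 17.7%. After thinning, 51.4% of cells without plasma and 54.3% of those with it held none of the 10, and 36.3% and 34.9% held exactly 1 of them. At least 3 UMIs of the list were found in 5.14% (4.70% to 5.62%) of cells without plasma and 4.52% (4.12% to 4.95%) of those with it, and without thinning by 39.9% and 43.6%. At least 10 UMIs were held by 0 of 9064 thinned plasma-negative cells, which an exact binomial interval allows to be up to 0.0407%, and by 3 of 9759 thinned plasma-positive cells (0.0307%).

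Co-detection was described for all 45 pairs of members by the odds ratio, which is 1 where 2 genes share cells only as often as their separate shares give. Its median over the pairs was 1.195 in the plasma-negative and 1.29 in the plasma-positive library, with 14 and 9 pairs that shared no cell. For 12 pairs, all with a Jun gene, the shares were high enough to give at least 5 shared cells in both libraries. Their odds ratios ran from 0.935 to 1.54 in the plasma-negative and from 0.700 to 1.80 in the plasma-positive library. Jun and Jund had 1.33 (1.17 to 1.51, Woolf's interval) and 1.29 (1.13 to 1.47). Junb and Ier2 had 1.54 (1.06 to 2.25) and 1.80 (1.21 to 2.67). These were the only 2 of the 12 pairs whose intervals lay above 1 in both libraries. Jun and Junb had 1.05 (0.914 to 1.21) and 1.21 (1.05 to 1.39). Over cells, Pearson's r of log counts lay between 0.00 and 0.05 for these pairs in the plasma-negative and between -0.01 and 0.04 in the plasma-positive library. Correlations this weak in sparse counts are no finding. Among the sparser pairs, r was above 0.1 for 2 plasma-negative and 3 plasma-positive pairs, each with 1 to 3 shared cells. In the plasma-positive library Egr1 and Ier2 had an odds ratio of 19.9 (6.55 to 60.3) from 4 shared cells, Egr1 and Junb 3.77 (1.56 to 9.10) from 9, and Atf3 and Ier2 3.01 (1.39 to 6.55) from 7. The plasma-negative values were 3.18 (0.424 to 23.9), 1.72 (0.667 to 4.45) and 1.78 (0.719 to 4.39).

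**Figure D3:**
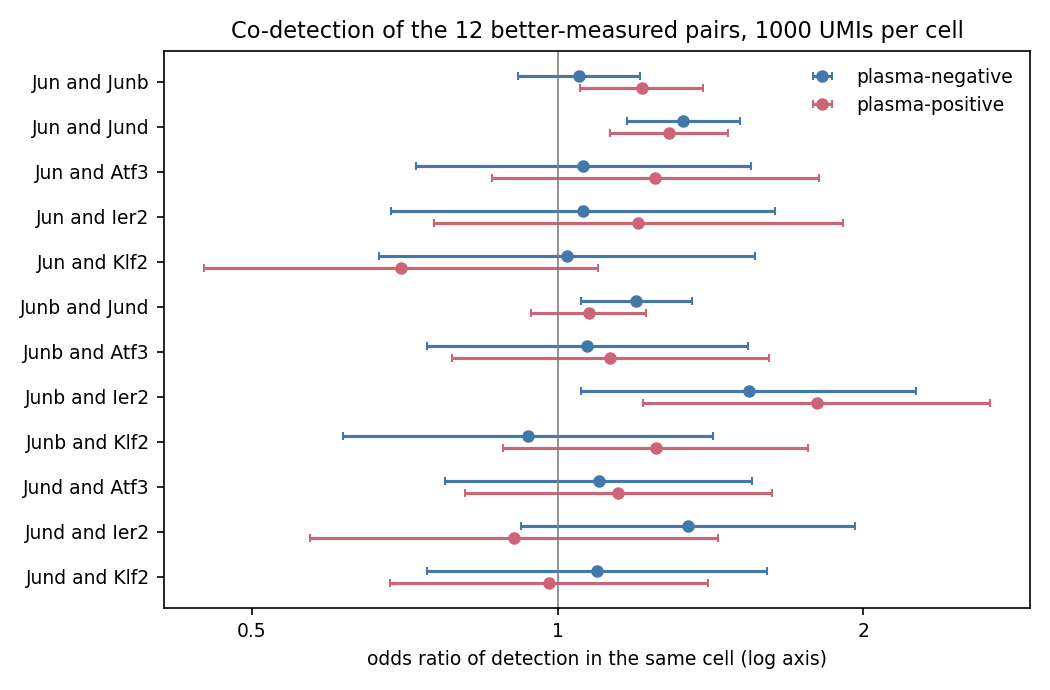
Odds ratio of detection in the same cell, on a log axis with Woolf's intervals, for the 12 pairs with enough expected shared cells, in cells thinned to 1000 UMIs. The intervals of Jun with Jund and of Junb with Ier2 lie above 1 in both libraries, and the other 10 pairs include 1 in at least 1 library.

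Likeness to other genes was also weak among those abundant enough to be ranked, which leaves out Ccl3 and Ccl4, both below 50 CPM in each library. Ranked by the lower of the Pearson r values in the 2 libraries, over 3537 genes at 50 CPM or more and over the 9064 and 9759 thinned cells, the genes most like the summed list were Cd9 (0.05 and 0.04), Basp1, Nfkbia, H3f3b and Ier5. Nfkbia encodes the inhibitor of NF-kB and Ier5 is itself an immediate early gene. Nfkbia was also the gene most like Junb, with r of 0.05 and 0.06, followed by Cd83 and Mfsd5. Jun and Jund were each other's nearest gene, at 0.05 and 0.04. Malat1 and P2ry13 followed for Jun, and Cst3 and Basp1 for Jund. Junb followed Ncl and Rpl7l1 for Ier2, and Jun stood between Ccl12 and Dmac2 for Egr1, which was seen in 21 and 20 thinned cells. The nearest genes were Eif5, Pdgfb and Slc15a3 for Atf3, and Timm13, Hspb3 and Ss18 for Klf2, with r of 0.02 to 0.03. For Fos (Psmb1, Babam2, Vps13c), Fosb (Slc15a3, Fnip1, Cdk6) and Dusp1 (Lcp1, Sdf2, Hdgf) the ranking likewise rests on few thinned cells, at most 31, and is given as names only.

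Egr1 and Atf3 were at higher levels in a small set of cells than in the rest. Ccl3 and Ccl4, which encode chemokines released by activated microglia, were at 2 UMIs or more in 33 thinned plasma-negative cells (0.364%) and 42 thinned plasma-positive cells (0.430%). Egr1 had 6 UMIs in these 33 cells, all from 2 of them, and 20 in the other 9031, a level of 182 CPM (66.7 to 396) against 2.21 CPM (1.35 to 3.42). In the plasma-positive library it had 14 UMIs in the 42 cells and 14 in the other 9717, or 333 CPM (182 to 559) against 1.44 CPM (0.788 to 2.42). These 14 UMIs came from 7 cells. Atf3 was 15.8-fold (7.74 to 28.8) and 35.1-fold (22.9 to 52.1) higher in the chemokine-rich cells than in the rest, from 11 UMIs in 5 cells and 29 UMIs in 11 cells. Several UMIs of Egr1 and Atf3 came from the same cell, which these intervals ignore, so they are too narrow. For Junb the excess was 2.76-fold (1.68 to 4.28) and 2.85-fold (1.84 to 4.21), from 20 and 25 UMIs. Jun and Jund were 2.005-fold (1.12 to 3.32) and 2.20-fold (1.34 to 3.41) higher in the plasma-positive chemokine-rich cells. In the plasma-negative ones they were at 1.05-fold (0.420 to 2.16) and 0.984-fold (0.424 to 1.94). Dusp1 had 1 of its 19 and 1 of its 31 thinned UMIs in these cells, at 15.2-fold (0.365 to 96.3) and 7.71-fold (0.189 to 46.4), so no excess beyond counting error was seen for it. Fos had 1 UMI there in each library, and Fosb had 0 and 1. Ier2 was 9.40-fold (3.001 to 22.5) higher in the plasma-positive chemokine-rich cells, from 5 UMIs in 4 cells. In the plasma-negative ones Ier2 was at 3.85-fold (0.462 to 14.2), from 2 UMIs. Klf2 was at 3.32-fold (0.398 to 12.2) without plasma, from 2 UMIs, and 1.04-fold (0.0262 to 5.84) with it, from 1 UMI.

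Cells were also chosen by the members instead, and their overlap with the chemokine-rich cells was not counted. At least 5 UMIs of Fos, Fosb, Egr1, Atf3, Ier2 and Dusp1 together were held by 13 of 9860 plasma-negative cells (0.132%, 0.0702% to 0.225%) and 26 of 10362 plasma-positive cells (0.251%, 0.164% to 0.367%). This minimum was set after the values were seen, and the plasma-positive cells among them were deeper, with a median of 6141 UMIs against 4126. Ccl4, which did not choose the cells, was detected in 12 of the 13 and 21 of the 26, and these cells held 39.7% and 56.4% of all Ccl4 UMIs of their library. Egr2, a relative of Egr1, had 4 of its 19 UMIs in them, all from 1 cell, and 17 of its 41 UMIs, from 7 cells. The microglial receptor Cx3cr1 was detected in all 13 and all 26, at 0.602-fold (0.537 to 0.673) and 0.725-fold (0.672 to 0.781) its level in other cells. Klf2 had 3 UMIs in each set, at 2.22-fold (0.456 to 6.51) and 0.778-fold (0.160 to 2.28) its level elsewhere. These UMIs are too few to tell whether Klf2 goes with the others, most of which chose the cells. The cell with the most UMIs of these 6 genes was plasma-positive, with 3949 UMIs in all, of which 48 were Atf3, 22 Egr1, 11 Junb, 7 Ier2, 1 Fos and 100 Ccl4.

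Jun was lower, and so was the summed list, in cells rich in Apoe, the gene for the lipid carrier apolipoprotein E. In thinned cells with 3 or more Apoe UMIs the level of Jun was 133 CPM against 204 CPM in other plasma-negative cells, 0.654-fold (0.409 to 0.993), from 165 such cells. In the plasma-positive library it was 107 CPM against 184 CPM, 0.582-fold (0.451 to 0.741), from 644 cells. Summed over the 10 genes, Jun among them, Apoe-rich cells were at 0.733-fold (0.588 to 0.904) without plasma and 0.831-fold (0.745 to 0.924) with it. Junb and Jund also lay below 1 in both libraries, and Klf2 above 1, all with intervals that included 1. Atf3 and Ier2 lay below 1 without plasma, from 1 UMI each, and above 1 with it, also with intervals that included 1. In the 13 and 26 cells chosen by members above, Apoe was at 0.516-fold (0.207 to 1.06) and 3.67-fold (3.40 to 3.95) its level in other cells. Its UMIs there came from 2 and 13 cells. Among thinned cells below the minimum of 3 Apoe UMIs, which could still hold some Apoe, Jun was at 204 CPM (195 to 214) without plasma. With plasma, Jun in such cells was at 184 CPM (175 to 193). The part of Apoe-rich cells in the lower Jun level of the plasma-positive library was not tested. In cells with 3 or more UMIs of 20 interferon-induced genes, Jun was at 1.01-fold (0.738 to 1.35) its level elsewhere in the plasma-negative and 0.784-fold (0.631 to 0.965) in the plasma-positive library. Junb in those cells was at 1.31-fold (1.01 to 1.67) without plasma and 0.920-fold (0.764 to 1.10) with it. Ier2 was at 1.67-fold (0.602 to 3.73) without plasma, from 6 UMIs, and 2.38-fold (1.38 to 3.89) with it, from 19 UMIs. Atf3 was at 2.21-fold (1.09 to 4.05) without plasma, from 11 UMIs in 5 cells, and 1.14-fold (0.652 to 1.87) with it. The summed list lay on opposite sides of 1, at 1.19-fold (1.03 to 1.37) without and 0.899-fold (0.811 to 0.994) with plasma. In cells with a Cdkn1a UMI, Junb was at 1.37-fold (1.06 to 1.74) without and 1.23-fold (0.887 to 1.68) with plasma. Cells with 2 or more UMIs of mitotic genes numbered 19 and 46. The summed list in them was at 0.935-fold (0.497 to 1.60) without and 0.613-fold (0.369 to 0.958) with plasma. The differences between these folds in the 2 libraries were not tested.

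**Figure D4:**
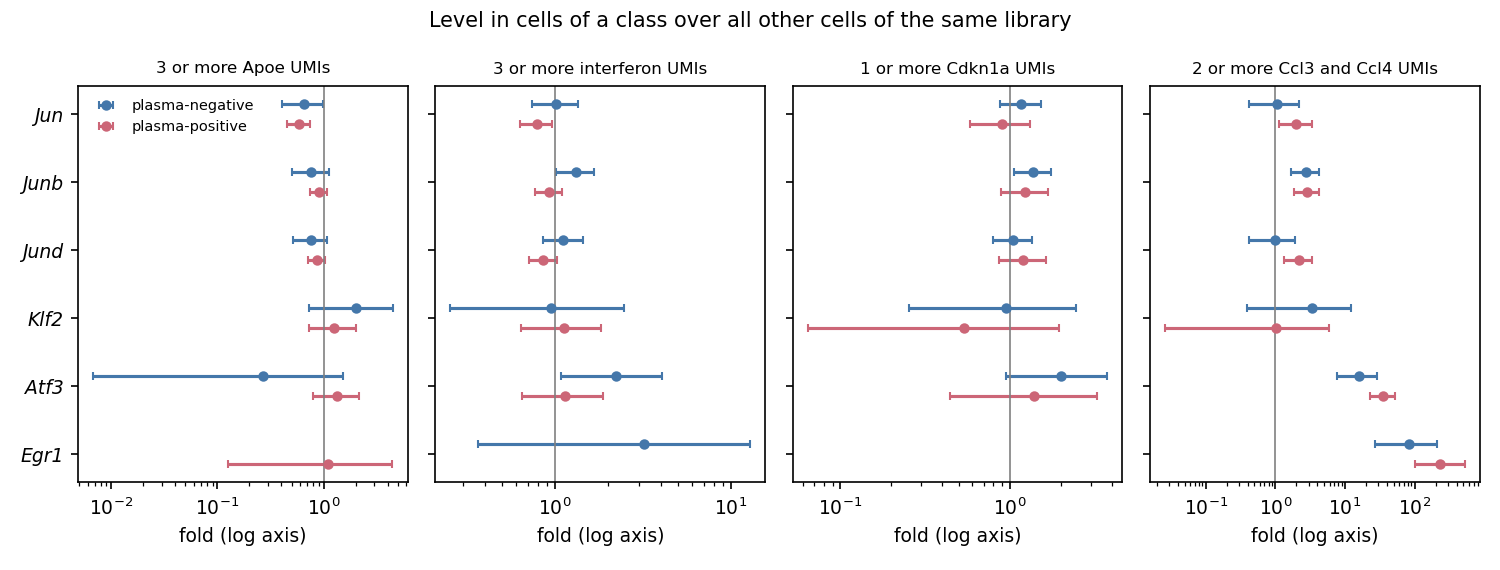
Fold of each gene's level in 4 classes of thinned cells over the other cells of the same library, on log axes that differ between panels, with exact conditional intervals; a gene with no UMI in the class has no point. Egr1 and Atf3 lie far to the right in cells with Ccl3 and Ccl4 UMIs. Jun, Junb and Jund lie left of 1 in Apoe-rich cells of both libraries, and the intervals of Junb and Jund include 1.

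Other genes of the pathway, on 8 lists drawn from general knowledge, were set beside the members by the same rule. Of 19 other AP-1 and ATF factors, 11 reached 10 CPM. None was past 1.2-fold higher and 1, Jdp2, a repressor of AP-1, was lower at 18.6 and 13.7 CPM (log2 ratio of -0.44, -0.61 to -0.28). Maf, a leucine zipper factor of macrophages, was at 1083 and 991 CPM. Mafg was at 129 and 118 CPM, and Batf3 had the highest ratio, 0.04. The median of this list was -0.06. Of the factors that switch immediate early genes on, 13 of 16 found in the files were compared and 0 were past 1.2-fold in either direction. They ran from Crtc3 at -0.19 to Mkl1 at 0.08 with a median of -0.04, and Mef2c and Mef2a were the most abundant at 1612 and 1500 CPM and at 1193 and 1061 CPM.

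Of 35 other immediate early and primary response genes found in the files, 17 were compared and 0 were past 1.2-fold, with a median of -0.05. Several were more abundant than any member: Rhob, a small GTPase, at 715 and 651 CPM, Zfp36l2 at 457 and 450 CPM and Btg1 at 369 and 356 CPM. Their extremes were Nfkbia at -0.20 and Socs3, a feedback inhibitor of cytokine signalling, at 0.20. Levels within the list varied widely, from Ier5 at 223 and 214 CPM and Btg2 at 208 and 186 CPM down to 19 and 41 UMIs for Egr2, 24 and 27 for Nr4a1 and 1 and 2 for Nr4a3. The 18 below the minimum went both ways. Gadd45b, with 20 and 63 UMIs, was at 1.37 (0.63 to 2.18). Egr3, with 6 and 24 UMIs, was at 1.72 (0.39 to 3.30), and Egr2 was at 0.83 (0.01 to 1.70). Klf10, with 288 and 313 UMIs, was at -0.16 (-0.40 to 0.07), and Arc had 6 and 0 UMIs. The MAP kinase cascade had 23 of 24 genes compared, 0 past 1.2-fold and a median of -0.03, from Braf at -0.13 to Hras at 0.09. Among phosphatases and feedback inhibitors, 9 of 16 were compared and 1, Spry1, was lower, at 12.7 and 10.3 CPM (log2 ratio -0.31, -0.50 to -0.11). Dusp6, which acts on ERK, was at 247 and 228 CPM. The median of this list was -0.11. Of 14 other Kruppel-like factors, 5 were compared and all 5 lay below 0, from -0.18 for Klf12 to -0.03 for Klf3, with 0 past 1.2-fold, whereas Klf2 was at 0.42. The 9 below the minimum went both ways. Klf11, with 55 and 115 UMIs, was at 0.78 (0.31 to 1.27), above Klf2, and Klf15, with 11 and 5 UMIs, was at -1.42 (-3.30 to 0.22).

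Genes described as induced when microglia are released from tissue with enzymes formed the last list, of which 8 of 25 are members. Of these 25, 16 were compared and 3 were past 1.2-fold higher, namely Klf2, Ccl3 and Ccl4, and 0 were lower, with a median of -0.03. Ccl4 had the highest log2 ratio, 1.09 (0.96 to 1.22), and the 13 and 26 cells described above held 39.7% and 56.4% of its UMIs. Levels within this list varied widely. Rhob was at 715 and 651 CPM, Txnip at 441 and 432 CPM and Jund at 237 and 224 CPM. Fos, Egr1, Dusp1, Hspa1a and Hspa1b, also on this list, stayed below 5 CPM in both libraries, with 12 and 11 UMIs for Hspa1a and 20 and 11 for Hspa1b. Of 15 heat shock genes 12 were compared and 0 were past 1.2-fold, from Hsf1 at -0.20 to Hspa8 at 0.16, with a median of 0.02. How the cells were released from the tissue was not given in the sources used here, and its part in these levels was not tested.

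**Figure D5:**
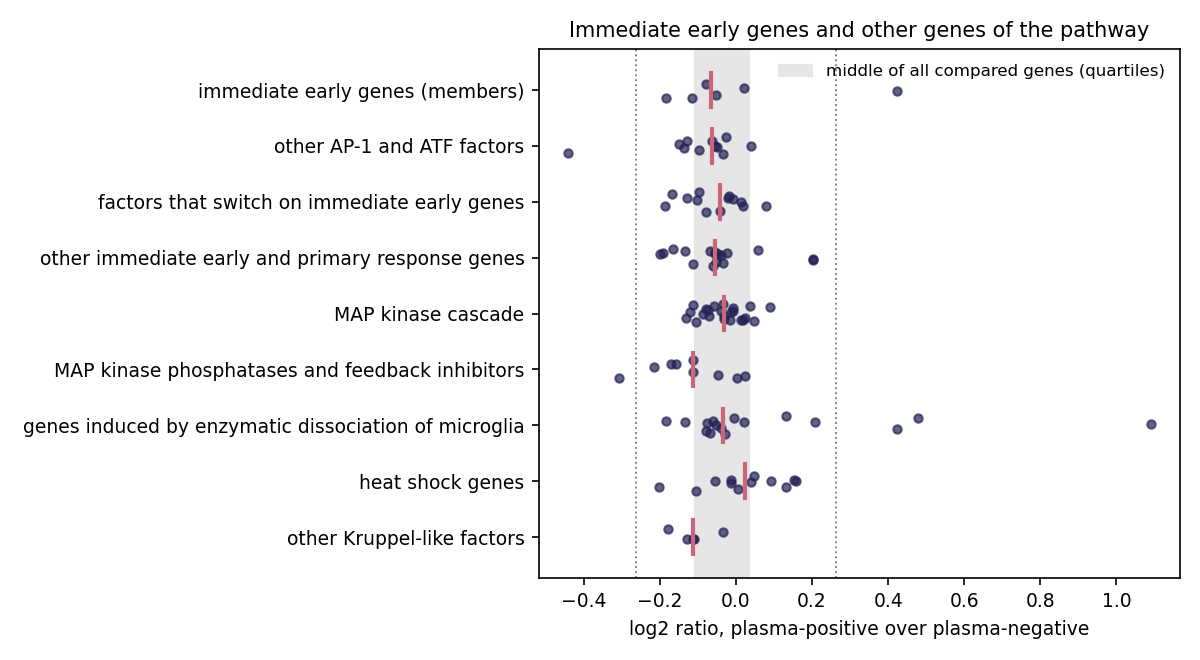
Log2 ratio, plasma-positive over plasma-negative, of each gene with at least 10 CPM, by list; red bars are list medians, the grey band spans the quartiles of all 8355 compared genes and dotted lines mark 1.2-fold. Klf2 stands to the right of the other 5 members compared, and only Jdp2, Spry1, Klf2, Ccl3 and Ccl4 lie outside the dotted lines.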

How the data were processed

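The authors deposited unnormalised counts of UMIs, by gene and by cell, for 1 droplet library per group (Chromium Single Cell 3′ v3.1, per the labels' protocols). The file headers name Cell Ranger 6.1.2, and the submitters' processing notes name Cell Ranger 3.0.1. The build, the annotation and the use of strand were not given in the sources used here, and barcodes were not used here. A cell needed 500 UMIs or more, 300 genes or more and a mitochondrial share of no more than 10%, and these limits removed 18 plasma-negative and 28 plasma-positive cells. Scrublet in scanpy 1.11.5 marked 0 cells as doublets in either library and so did not work here; no cell was removed as a doublet. Removing the 778 and 859 highest scores was an alternative. Counts were summed per library and divided by its total. Poisson, binomial and conditional binomial intervals are exact at 95% (scipy 1.17.1). The ratio rule was run on simulated Poisson counts with planted changes larger than 1.2-fold. These counts held no clustering of UMIs in cells and no differences between mice, sorts or preparations, so the run does not cover them. Thinning drew 1000 UMIs per cell without replacement. Cell classes were cut from marker UMIs and are ranges, not types. TMM came from edgeR 4.0.16. Members, lists and rules were chosen with earlier results of these data known. All 10 members are named. From each list the 3 most abundant genes, the extremes and those past 1.2-fold could be named, except a gene that is not reported here. Genes with few UMIs and those of the chemokine-rich cells were named after their values were seen. Of 31053 identifiers, 30934 were in GENCODE M21 (GRCm38), used only for positions.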

Additional observations from a re-analysis of the deposited data

How the results depend on the processing

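Of 99 recomputed log2 ratios of single members, 96 stayed within the counting interval of the main value, and 3 moved beyond it. The 3 were ratios of Egr1 and of Jund, which ranged from -0.18 to -0.04. Klf2, the member past 1.2-fold, kept its sign under each, while Fosb and Atf3 took both signs. Klf2 ranged from 0.32 to 0.46 and Jun from -0.19 to -0.14, while Egr1 ranged from 0.00 to 0.72, Atf3 from -0.09 to 0.06 and Fosb from -0.87 to 0.44. The summed log2 ratio of -0.08 became -0.039 with TMM scaling, -0.036 with median-of-ratios size factors and -0.12 with each cell thinned. Members past 1.2-fold numbered 2 with each cell thinned (Klf2 and Ier2), 5 of 10 with no minimum and 0 of 3 at 50 CPM or more, where Klf2 was not compared. All genes past 1.2-fold then were 3.40% higher and 6.58% lower with thinning, 14.1% and 17.3% with no minimum, and 0.678% and 0.650% at 50 CPM. With the mean over cells 3.71% were lower, and with median-of-ratios factors 2.01% were higher and 1.198% lower. The shares with at least 3 member UMIs, 5.14% and 4.52%, became 0.963% and 0.946% with 500 UMIs per cell, 19.8% and 17.9% with 2000, 39.9% and 43.6% with no thinning, and 2.16% and 2.14% without Jund, since depth and the genes counted set them. The median odds ratio of the plasma-negative library was 0 with 500 UMIs per cell and 1.90 with no thinning. Leaving out the richest cells and restricting the pairs to 12 were chosen after seeing the data. With 1 library per group no replicate could be left out, and no paired analysis was possible because the comparisons came from no test. Depth limits Fos, Fosb, Dusp1 and Egr1 most, which had between 9 and 185 UMIs in a library.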
